A study of Mus musculus with 12 samples.

Results

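The elements described here are 1270 stretches of mouse genomic DNA that were tested in their natural sequence upstream of a Crx promoter (pCrx) in mouse retina. They are 1270 of the 14987 elements of the library; the other 13717 carry designed changes, most of them in homeodomain binding sites. One element was taken per genomic region: the one named as unmodified or, where no such name was given, the one whose tested sequence equalled the unmodified sequence. CRE-seq tests many candidate regulatory sequences at once: here an element of 100 bp sat next to the promoter, and its output was read from barcodes of 13 bp in the transcript of a DsRed reporter. Retinas came from newborn (postnatal day 0) CD1 mice of WT genotype, were electroporated with 30 µg of the pCrx library and 30 µg of a CAG-GFP plasmid, and stayed in culture for 8 days. A biological replicate was 5 retinas in one pool, and the labels number 3 DNA and 3 cDNA libraries as replicates 1 to 3. They do not say whether DNA and cDNA of one number come from the same pool, and replicate values here divide cDNA by the DNA of the same number. The readout therefore comes from plasmids in whole cultured explants, and sums over all cells that took up the library, in which fewer active cells and less RNA per cell cannot be told apart. The deposited files hold reporter barcodes and no cell transcripts, so the cell types behind the signal were not checked.

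Crx is a homeodomain transcription factor that drives gene expression in rods and cones, and its own promoter is active in photoreceptors and in some bipolar cells. Homeodomain proteins bind a TAAT core, and residue 50 of the homeodomain sets the bases they prefer after it. K50 proteins such as Crx and Otx2 prefer TAATCC, and Q50 proteins prefer TAATTA. A pair of cores that face each other is a dimeric site. Photoreceptor elements often also hold sites for other families. The E-box is bound by basic helix-loop-helix proteins such as NEUROD1, the nuclear receptor half-site by proteins such as RORB, ESRRB and NR2E3, the NRL half-site by the rod determinant NRL, and the MEF2 site by MADS-box proteins such as MEF2C.

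Stretches of 30 bases from elements at both ends of the activity range are printed here, because homeodomain cores occur at both ends. They are the plus strand of mm9 as deposited. Capitals mark bases in TAAT cores, K50 sites and the half-site, NEUROD-type E-box (CAGATG or CATATG), NRL, MEF2 and TEAD motifs. Spacer bases of dimers and E-boxes of other spellings stay in lower case. A motif can run past the end of the stretch. The first 5 are among the 10 most active elements and the next 5 among the 10 least active; they were picked after activities were known, to show both the commoner and the opposite cases.
chr14:52727791-52727990: TTAATCCtccttTAAGCCagtcacCATCTG
chr8:61013469-61013668: GATGgtcAGATTAATgcaggtggacTAAGC
chr4:139687605-139687804: ttcaagaaagtgggcTAATCCaatATTAcc
chr3:36517185-36517384: TAATCCtttaacTAATCCtcacagTGACCT
chr4:80552758-80552957: gatgctagTGACCTacttttagtATTAtgt
chr3:51290841-51291040: AATCCcttcatAGATTAATTAcacTAATCT
chr15:12670092-12670291: agctgtTAATCCttcaATTAAGCCgctaga
chr1:134310680-134310879: tccttTAATCCtctttggaGGATTAgctcc
chr15:85825476-85825675: CAGATGgaagAGATTAATacccaatatcct
chr4:53789006-53789205: aactTAATCCcccaaTAATcGGATTAtgga
Names are the regions of 200 bp that the files give, in mm9; the 100 tested bases lie inside them. The stretches begin at bases 39, 36, 69, 62, 68, 9, 44, 33, 2 and 65 of their elements, in the order printed. On the opposite strand TGACCT reads AGGTCA and CATCTG reads CAGATG, so the first element joins K50 sites to an E-box, and chr3:36517185-36517384 and chr4:80552758-80552957 place a nuclear receptor half-site close to homeodomain cores. Neither motif marks an end by itself: chr4:139687605-139687804, the third most active element, holds neither, and chr15:85825476-85825675, among the least active, holds CAGATG beside a K50 site. The other 4 stretches of low activity hold K50 sites with neither motif.

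The pCrx libraries held 31198771 to 36500857 DNA reads and 24726849 to 27659982 cDNA reads. No unmodified element had fewer than 113 DNA reads in a library, and each was represented by 6 barcodes (423 elements) or 7 barcodes (847 elements). Reads are PCR products without molecular identifiers, so counting error understates the full error. Activity is the log2 ratio of cDNA to DNA, so that 0 is the typical element of the whole library and not an empty promoter. Replicate values correlated at r = 0.963 to 0.966 across the 1270 elements, which is a description since elements share libraries. The labels call the replicates biological; p-values measure the spread between these libraries.

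As genomic sequences, the unmodified elements spread widely around the typical element and leaned to higher activity. Among them 631 (49.7%) were more active than the typical element in edgeR's quasi-likelihood test at an adjusted p under 0.05, against 37.4% of all elements. Less active were 394 (31.0%), against 38.5% of all elements. The other 245 (19.3%) did not pass. More than 2-fold more active were 258 elements (20.3%, against 12.8% of all elements), and more than 2-fold less active were 82 (6.46%, against 5.65%). Modified elements were more active in 36.3% and less active in 39.2% of cases. All 3 replicates lay on the side of the call for 1015 of the 1025 elements that passed. Of those 1025, 61.6% were more active; scaling by total counts in place of TMM moved the median of all elements from -0.05 to -0.39 and this share to 45.9%, so the split between the sides depends on the zero chosen.

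Median activity was 0.22, with an SD of 1.02 over elements and a median standard error of 0.10 per element. The 25th and 75th percentiles were -0.42 and 1.02, which is 2.72-fold between them. The 5th and 95th percentiles were -1.38 and 1.89. The low end ran farther from 0 than the high end: the most active element reached 2.77 and the least active -4.00. The SD over elements was thus many times the median standard error, whereas medians differed little between replicates (0.22, 0.21 and 0.24). That error comes from libraries that share barcodes. It leaves out the spread between the barcodes of an element, whose SD had a median of 0.38.

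**Figure D1:**
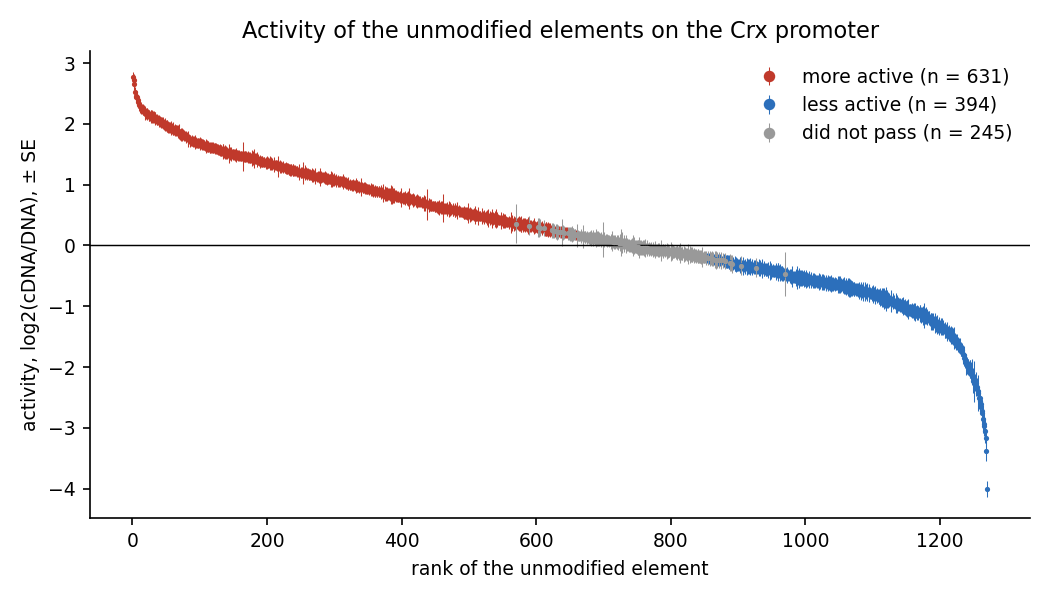
Activity of the 1270 unmodified elements on the Crx promoter by rank, as log2(cDNA/DNA) ± SE from 3 replicates, with colours for more active (631), less active (394) and not passing (245). The high end levels off below 3, and the low end drops to -4.00 over the last few elements.

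The most active element was chr14:52727791-52727990, whose K50 sites and E-box are printed above and which also holds a half-site. Its DNA stood at 94.0, 88.2 and 93.7 CPM (normalised counts per 1000000 reads) in the 3 DNA libraries and its cDNA at 590, 672 and 620 CPM. All cDNA values were more than 6 times the DNA values, and activity was 2.77 ± 0.08 (SE, n = 3), a 6.82-fold excess (edgeR adjusted p = 4.1e-14). The second, chr8:61013469-61013668, has 3 K50 sites of different spelling and 1 NEUROD-type E-box. Its replicates gave 2.71, 2.95 and 2.45, and it was 6.57-fold above the typical element (adjusted p = 7.77e-14, edgeR). The third, chr4:139687605-139687804, has 3 K50 sites and none of the half-site, NEUROD-type E-box, NRL or MEF2 motifs, at 2.49, 2.94 and 2.53. Next came chr9:123760000-123760199, which joins 1 K50 site to an NRL half-site and an E-box and was the most active element with an NRL half-site. Its replicates were close together at 2.50, 2.50 and 2.55.

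The remaining 6 of the 10 most active elements lay between 2.30 and 2.46. They were chr18:56764869-56765068 (2.46), chr3:36517185-36517384 (2.45), chr4:80552758-80552957 (2.44), chr5:44471989-44472188 (2.39), chr1:134617929-134618128 (2.36) and chr6:57720875-57721074 (2.30). Their standard errors were 0.09 to 0.10, so neighbours in this order did not differ beyond their error. chr3:36517185-36517384 carries TAATCC at 2 places followed by AGGTCA on the other strand. chr18:56764869-56765068 and chr5:44471989-44472188 hold TAAT cores and none of the 4 K50 spellings searched. The replicate spread was widest for chr1:134617929-134618128, at 2.57, 2.49 and 2.01.

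The least active element was chr3:51290841-51291040. It is the richest in cores among the elements named here, with 11 copies of TAAT, 7 K50 sites and 32% G and C bases. Its DNA stood at 104, 102 and 100.0 CPM and its cDNA at 4.85, 7.39 and 6.89 CPM. The cDNA values were far below the DNA values in each replicate, with replicate activities of -4.42, -3.79 and -3.86 and a fitted activity of -4.00 ± 0.13 (SE, n = 3; edgeR adjusted p = 5.4e-14), 16-fold below the typical element. The next were chr15:12670092-12670291 at -2.98, -3.69 and -3.54, and chr1:134310680-134310879 at -3.12, -3.60 and -2.90. Each of these holds 2 K50 sites. The replicates of this pair overlapped each other, and all lay above those of the least active element. Barcodes did overlap, at -7.21 to -2.73 in the least active element. In the pair they ran from -5.44 to -1.75 and from -5.42 to -2.16, in that order.

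The other elements at this end were chr15:53019906-53020105 (-3.05), chr15:85825476-85825675 (-2.97), chr4:53789006-53789205 (-2.95), chr14:48846499-48846698 (-2.86), chr9:45613135-45613334 (-2.75), chr4:53646664-53646863 (-2.72) and chr13:93401816-93402015 (-2.60). chr15:53019906-53020105 holds an NRL half-site and a dimeric site spelled TAAT and ATTA with 3 bases between. It was the least active element with that dimer spelling and also the least active with an NRL half-site. chr15:85825476-85825675 was the least active element with a NEUROD-type E-box. chr4:53789006-53789205 has a dimer in which both TAAT cores are followed by C, and 1 of its arms reads TAATCC. chr13:93401816-93402015 was the only one of the 10 without a TAAT, and its single K50 site is TAAGCC.

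**Figure D2:**
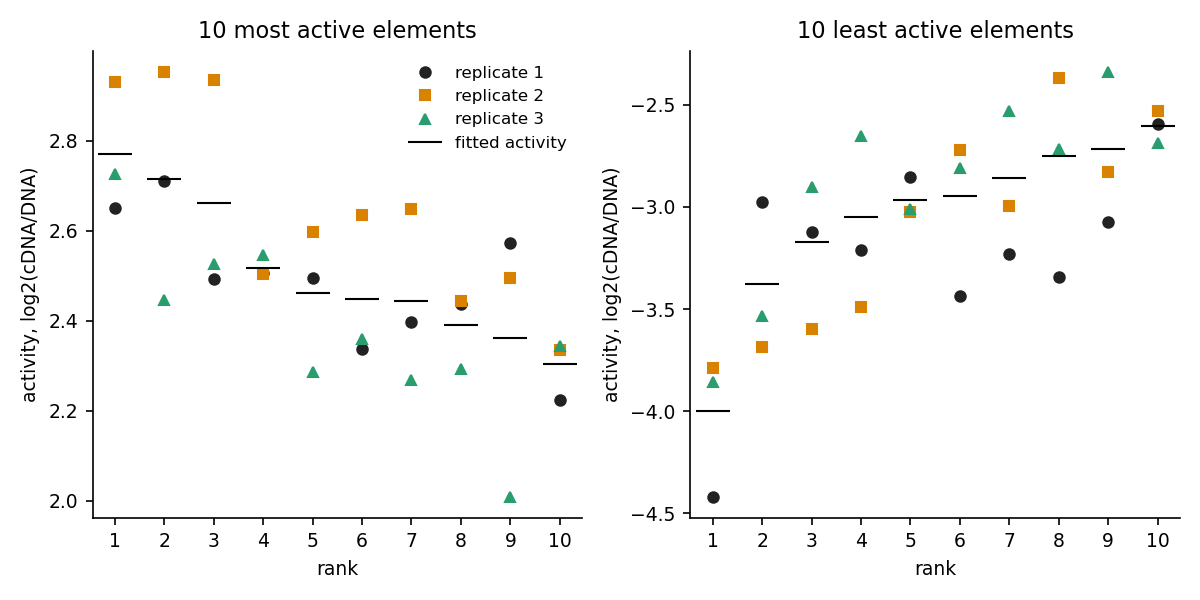
Replicate values of log2(cDNA/DNA) for the 10 most active and the 10 least active unmodified elements, by rank, with the fitted activity as a line; the vertical axes of the panels differ. Replicates of the most active elements lie between 2.01 and 2.95 and those of the least active between -4.42 and -2.34.

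The ends of the ranking differed in the motifs beside the K50 site and hardly in the K50 site itself. These counts were made after activities were known and are given without a test. K50 sites were searched on both strands in the spellings TAATCC and TAATCT and also TAAGCC and TAAGCT. Such a site was present in 120 of the 127 most active elements (94.5%), in 119 of the 127 least active (93.7%) and in 1210 of all 1270 (95.3%). The NEUROD-type E-box was in 30 of the 127 most active (23.6%), 10 of the 127 least active (7.87%) and 11.3% of all. AGGTCA was in 22 (17.3%), 5 (3.94%) and 10.2%. GGGTCA, a spelling picked after its values were seen, was in 15 (11.8%), 0 and 62 (4.88%) elements. At least 1 of these E-box and half-site spellings was found in 48.0% of the 127 most active, 11% of the 127 least active and 24.3% of all. Elements with 5 or more TAAT cores made up 3.94% of the most active, 10.2% of the least active and 4.09% of all.

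Among sites for other factors, the nuclear receptor half-site went with higher activity. All motifs were chosen with earlier results of these data known, so the differences given for them are descriptions. AGGTCA on either strand occurred in 129 elements (10.2%), whose median activity was 0.69 against 0.19 without it. The difference of medians was 0.50, and 0.43 to 0.52 in single replicates. Of the 129, 81 (62.8%) were more active and 24 (18.6%) less active, against 48.2% and 32.4% of elements without it. More than 2-fold less active were 3 (2.33%, against 6.92% without it). Its members ranged from 2.77 in chr14:52727791-52727990 through 0.69 in the middle one, chr10:41013693-41013892, to -1.59 in chr15:66793922-66794121. The replicates of the middle element were 0.84, 0.55 and 0.68, and those of the lowest -1.63, -1.62 and -1.52. Medians showed no steady order by distance from the element's centre: 0.51 within 10 bases, 0.36 from 10 to 20, 1.07 from 20 to 30 and 0.43 beyond 30.

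A base before or within the half-site went with larger differences, in spellings picked after their values were seen. With a T before it, the half-site occurred in 35 elements with a median of 1.13, which was 0.91 above the rest (0.70 to 1.05 by replicate). Of these, 17 (48.6%) were more than 2-fold more active and 0 more than 2-fold less active, against 19.5% and 6.64% without it. GGGTCA occurred in 62 elements, with a median of 0.94 and a difference of 0.76 (0.72 to 0.88 by replicate). Of the 62, 50 (80.6%) were more active and 5 (8.06%) less active, against 48.1% and 32.2% without this spelling. Both were picked because elements that hold them stood high, so these counts are no separate support.

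The NEUROD-type E-box, CAGATG or CATATG, occurred in 143 elements (11.3%). Their median was 0.64 against 0.16 without it, a difference of 0.48 (0.43 to 0.56 by replicate). More active were 95 (66.4%, against 47.6% without it), and 52 (36.4%, against 18.3%) were more than 2-fold more active. The general E-box, CA and TG with any 2 bases between, was in 507 elements with a median of 0.24, close to the 0.21 of the rest. The difference was thus found for this spelling and hardly for the general motif. In the middle of this group stood chr3:101012808-101013007 at 0.68, 0.60 and 0.63. Where CAGATG nearest the centre read along the minus strand (53 elements), the median was 0.89, and along the plus strand (76 elements) it was 0.58. That difference was not tested.

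Half-site and E-box together were rare, at 12 elements. Their median was 1.09, against 0.53 for the half-site without the E-box (117 elements), 0.61 for the E-box without the half-site (131 elements) and 0.12 for neither (1010 elements). Counting how many kinds of 4 sites were present (E-box, AGGTCA, MEF2 and the NRL half-site) gave medians of 0.09 for none (878 elements), 0.44 for 1 kind (335), 0.83 for 2 kinds (55) and 0.97 for 3 kinds (2 elements). More active were 45.0%, 57.6% and 74.5% of the elements with none, 1 and 2 kinds. Each of the 4 sites by itself went with a higher median in these same elements, so a rise with their number is no separate finding. The groups of 12 and 2 elements are also thin.

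The MEF2 site was rare, and its 20 elements had a median of 0.86 against 0.21 (difference 0.65, and 0.55 to 0.74 by replicate). Of these 15 (75%) were more active and 2 (10%) less active, against 49.3% and 31.4% without the site. More than 2-fold more active were 3 (15.0%), fewer than the 20.4% without it. The highest was chr14:60790432-60790631 at 1.91, 2.11 and 1.69; the middle one was chr6:146285870-146286069 at 0.74, 1.07 and 0.95; and the lowest was chr19:20419136-20419335 at -0.96, -0.83 and -0.85. Their MEF2 sites are printed in capitals beside any homeodomain site in reach, from bases 33, 53 and 4 of the elements.
chr14:60790432-60790631: CTAAAAATAGctgctagaaggacTAATCCc
chr6:146285870-146286069: tgctTAATCTctctttCTAAATTTAGacac
chr19:20419136-20419335: gcCTATTTTTAGggtccgtctgttgctgtg
All 3 hold the same kind of site, and their replicate ranges do not overlap.

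The NRL half-site, TGCTGA, was in 159 elements (12.5%) and stood closer to the rest. Its median was 0.33 against 0.19 (difference 0.14, and 0.11 to 0.13 by replicate). More active were 56.6% and less active 20.1%, against 48.7% and 32.6% without it. The middle element, chr11:44713604-44713803, had replicates of 0.18, 0.26 and 0.53. All lay above 0.

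Homeodomain sites themselves showed small differences in this collection, where nearly every element has one. TAATCC, the spelling Crx prefers, was in 809 elements (63.7%) with a median of 0.29 against 0.13 without it, a difference of 0.16 by medians of the fit, 0.08 to 0.15 by replicate and 0.04 by means. Where the copy nearest the centre read along the plus strand (395 elements), the median was 0.44 and 57.5% were more active. Along the minus strand (414 elements) these were 0.14 and 46.9%. The orientation difference was not tested. The differences for TAATCT (377 elements), TAAGCC (306) and TAAGCT (236) were -0.01, -0.07 and 0.15. The Q50 site TAATTA (84 elements) had a median of 0.22, like the rest, and 10 of its elements (11.9%) were more than 2-fold less active against 6.07% without it. The middle element with TAATCC, chr5:31126478-31126677, had replicates of 0.42, 0.21 and 0.24.

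More K50 sites did not mean steadily more activity. Medians were 0.14 with 1 site (607 elements), 0.35 with 2 (470), 0.47 with 3 (114) and 0.14 with 4 or more (19). The 60 elements with none of these 4 spellings had a median of 0.00, and 36.7% of them were more active. From 1 site upward the spread was wider with more sites: the SD was 0.95 with 1 site, 1.04 with 2, 1.16 with 3 and 1.47 with 4 or more. Elements with no such site broke this order, at an SD of 1.05. The 19 elements with 4 or more sites also had the widest barcode spread (median SD 0.55, against 0.35 to 0.38 in the other classes). The SD of activity also fell with rising GC content, as given below. How far either went with site number was not tested. The share more than 2-fold less active was 8.33% with none and 4.78%, 6.17%, 12.3% and 26.3% from 1 site to 4 or more. For TAAT cores the SD was 0.92 with none (82 elements), 0.88 at 1 core (405 elements) and 1.38 at 5 or more (52 elements). Of the 52, 7 (13.5%) were more than 2-fold more active and 10 (19.2%) more than 2-fold less active, against 20.3% and 6.46% of all 1270.

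Dimeric sites in the spelling searched, TAAT and ATTA with 3 bases between, were in 35 elements spread over the whole range. Their median was 0.32, a difference of 0.10 that ran from -0.01 to 0.28 in single replicates and thus did not exceed their spread. The highest was chr11:120313650-120313849 at 2.07, 2.42 and 2.01, the middle one chr19:45366991-45367190 at 0.20, 0.44 and 0.30, and the lowest chr15:53019906-53020105 at -3.21, -3.49 and -2.65. Where both cores were followed by C, the base that K50 proteins prefer there (9 elements), the median was 1.08. Of the 9, 6 were more active and 2 less active, against 49.6% and 31.1% of elements without such a dimer. The difference from other elements was 0.86 by medians and 0.18 by means. The library's 100 elements chosen by the authors around a dimer had a median of 0.56 with 66.0% more active. Its 100 elements chosen around a monomer had 0.26 with 50%, and the other 1070 elements 0.18 with 48.1%. The spelling searched has 35 elements in all, and some of them, such as chr15:53019906-53020105, are outside the authors' dimer set. It thus misses most of the 100 elements of the dimer set. chr8:61013469-61013668 and chr1:134310680-134310879, at opposite ends of the ranking, are in that set without this spelling.

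**Figure D3:**
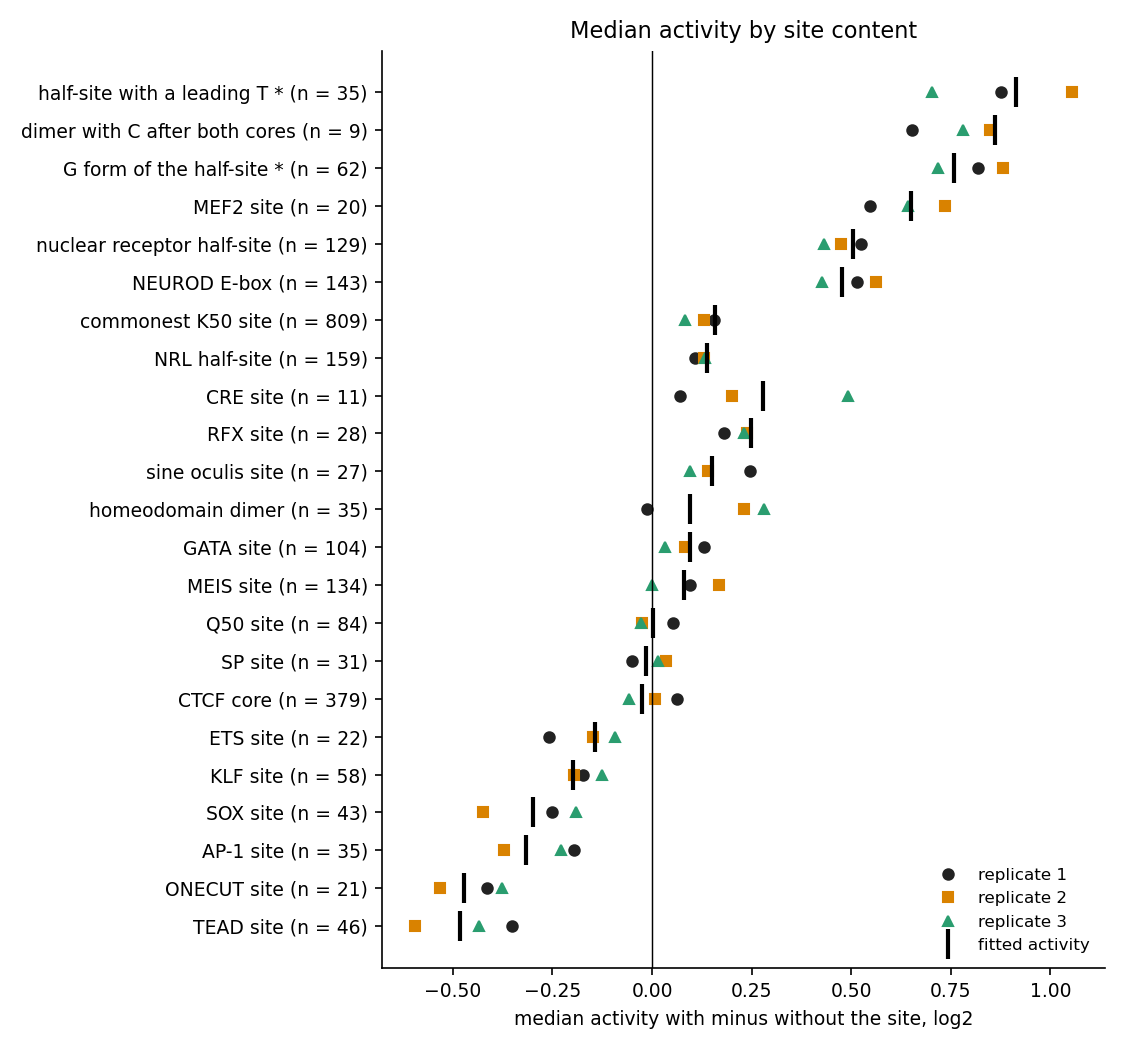
Median activity of elements with a site minus that of elements without it, on the log2 scale, for 23 kinds of site. Symbols give the 3 replicates and bars the fitted activity. Asterisks mark spellings picked after values were seen, and the other motifs were chosen with earlier results of these data known. Half-site, E-box and MEF2 groups lie right of 0 in every replicate, as do the smaller CRE, RFX, sine oculis and GATA differences; TEAD, ONECUT, AP-1, SOX, KLF and ETS groups lie left of it, and the homeodomain dimer, MEIS, Q50, SP and CTCF groups straddle it.

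Sites of factors outside the photoreceptor families differed in both directions. GGAATG, the core bound by TEAD proteins, was in 46 elements with a median of -0.25 against 0.23 without it (difference -0.48, and -0.59 to -0.35 by replicate). Of these 23 (50%) were less active and 16 (34.8%) more active, against 30.3% and 50.2% without it. More than 2-fold less active were 10 (21.7%, against 5.88% without it), and as many were more than 2-fold more active (against 20.3%). Its highest element was chr19:4101427-4101626 at 1.99, 2.27 and 1.91, its middle one chr10:73163716-73163915 at -0.10, -0.58 and -0.12, and its lowest chr2:28068538-28068737 at -2.73, -3.06 and -2.08. ATTGAT, an ONECUT core, was in 21 elements with a difference of -0.47 by medians and -0.19 by means. The differences were -0.30 for the SOX core ACAATG (43 elements), -0.32 for the AP-1 site (TGA and TCA around any base, 35 elements), -0.20 for the KLF core GGGTGT (58 elements) and -0.14 for the ETS core CCGGAA (22 elements). Above 0 were the CRE core TGACGT at 0.28 (11 elements, 0.07 to 0.49 by replicate), the RFX core GTTGCC at 0.25 (28 elements), the sine oculis family core GAAACC at 0.15 (27 elements), the GATA core GATAAG at 0.10 (104 elements) and the MEIS core TGACAG at 0.08 (134 elements). GGGCGG, the SP core, stood at -0.01 over 31 elements and CCCTC, the CTCF core, at -0.03 over 379.

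Base composition went with the width of the distribution more than with its middle. G and C bases made up 32 to 66% of an element. Across the 1270 elements GC content and activity were unrelated (Pearson r = 0.0039, Spearman rho = -0.029, as a description). In 5 classes of rising GC content the SD was 1.23, 1.02, 1.01, 0.88 and 0.86, while medians were 0.37, 0.24, 0.08, 0.13 and 0.25. Of the 298 elements with at most 44% G and C, 26.8% were more than 2-fold more active and 10.1% more than 2-fold less active. In the class of highest GC (54 to 66%) these were 16.9% and 2.01%. Elements with a run of 8 or more A or T bases had higher medians (0.46 with 8 to 9 and 0.54 with 10 or more) than those with runs of up to 5 (0.16) or 6 to 7 (0.13).

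**Figure D4:**
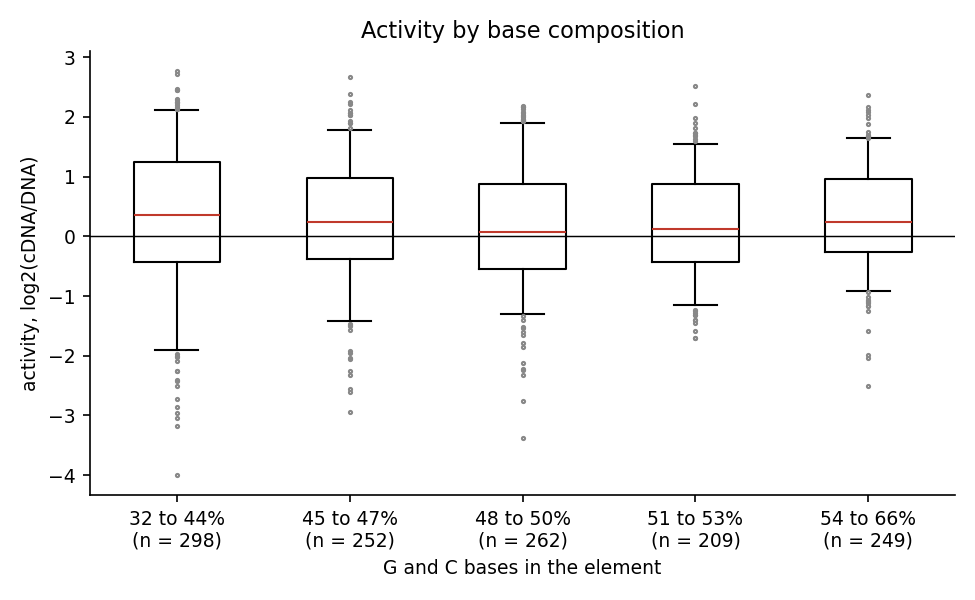
Activity as log2(cDNA/DNA) in 5 classes of the 1270 elements by share of G and C bases; boxes give quartiles, the line in each the median, whiskers the 5th and 95th percentiles and points the elements beyond. The spread narrows from an SD of 1.23 in the class of lowest GC to 0.86 in the highest, and the medians stay between 0.08 and 0.37.

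Some elements are related in sequence and could be compared base by base. Elements chr17:17088460-17088659 and chr17:17371783-17371982 lie at the starts of BC002059 and Gm5165 and share 85 of 94 aligned bases. Their 30-base stretches below, starting at bases 46 and 40, differ by 1 substitution, C65A (position counted in the first element), which turns TAAGCC into TAATCC on the minus strand.
chr17:17088460-17088659: ttccctgTAATTAagcaGGCTTAagtgatt
chr17:17371783-17371982: ttccctgTAATTAagcaGGATTAagtgatt
The first had replicates of -0.13, -0.27 and -0.08 and did not pass (edgeR adjusted p = 0.11). The second had -1.38, -1.52 and -1.63 and was less active (-1.51 ± 0.10, SE). The mean difference was 1.35 ± 0.17 (SD over 3 replicates), larger than the replicate spread. An exact two-sided permutation test over replicates gave p = 0.10, the smallest that 3 against 3 can give. It treated the replicates of the elements as unpaired, although the same libraries read both, as did the exact tests given below. The aligned parts differ at 8 further bases, and 6 bases of each element lie outside the alignment, so the difference cannot be tied to that base.

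Another pair was nearly identical in sequence and close in activity. chr17:7210027-7210226 and chr17:8313767-8313966 share 76 of 77 aligned bases, on opposite strands and shifted against each other. They gave 0.43, 0.49 and 0.60, and 0.68, 0.37 and 0.40. The replicates overlap, and the mean difference was 0.03 ± 0.24 (SD, n = 3; exact permutation p = 0.80). The third pair, chr13:44795786-44795985 and chr13:44795841-44796040, overlaps in the genome by 45 tested bases. The first had 0.04, -0.03 and 0.17, and the second -0.28, -0.55 and -0.49, without overlap (exact permutation p = 0.10). These were, with 3 chr3 elements that share a run of 22 or more bases, all cases among the 1270 of a shared run of at least 20 bases.

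Some regions close to each other in the genome differed. There were 19 pairs with starts under 1000 bp apart, and their median absolute difference was 0.49. The SD over all 1270 elements was 1.02, and pairs farther apart were not compared. In 4 pairs both members passed in the same direction and in 4 in opposite directions; the latter are named after their values were seen. chr17:73287064-73287263 gave -0.60, -1.41 and -1.18, and chr17:73287537-73287736, 473 bp on, gave 2.00, 2.11 and 1.81. chr6:117869380-117869579 gave 1.79, 2.21 and 1.82, and chr6:117869604-117869803, 224 bp on, gave -0.58, -0.91 and -1.17. In both pairs the replicates were far apart. Replicates share barcodes, however, and those of chr17:73287537-73287736 ran from -2.96 to 2.09. Its call was lost with barcodes as units (limma adjusted p = 0.171). The other pairs were chr15:39265733-39265932 (1.06) with chr15:39265985-39266184 (-0.72), and chr18:65675432-65675631 (-1.25) with chr18:65675788-65675987 (1.17).

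Only 12 of the 1270 elements (0.945%) could be placed at a gene start, by an exact match of at least 30 bases to RefSeq start-site sequences of GRCm38.p6 that reach from 250 bases before to 50 after the start. Of these 6 were more active, 4 less active and 2 did not pass, against 49.7%, 31.0% and 19.3% of all 1270 elements. Casz1, a zinc-finger transcription factor of retinal progenitors and rods, had an element 226 to 127 bases before its start, chr4:148263180-148263379, at 1.71, 1.93 and 1.81. Ppef2, a protein phosphatase of photoreceptors, had one 169 to 70 bases before its start, chr5:92685324-92685523, at 1.18, 1.51 and 1.20 (1.29 ± 0.09, SE; edgeR adjusted p = 2.28e-10). Zfp385a, a zinc-finger gene, had chr15:103164766-103164965 at 1.15, 1.67 and 1.08, with few DNA reads (10.2, 8.53 and 9.82 CPM). All 3 lay above 1 in each replicate.

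The predicted genes Gm33582 (1.92), Gm48552 (1.71) and Gm2233 (1.13) had the other more active elements. Dlg4, which encodes the synaptic scaffold PSD-95, had the least active element of the 12, chr11:69830592-69830791, which spans its start from 63 bases before it. Its replicates were -1.62, -3.07 and -2.38 (-2.24 ± 0.34, SE; edgeR adjusted p = 6.23e-06), a wide spread that went with few reads, at 8.67, 8.09 and 8.22 CPM of DNA. Only 2 of the 7 barcodes of the Dlg4 element were usable, at -2.54 and -1.21, so its call could not be checked over barcodes. Elements at Msantd4 (-0.59), Pitpnm2os2 (-0.51) and Gm5165 (-1.51) were less active. The element at Gm19497 had -0.46, 0.34 and -0.33 and did not pass. Elements at starts were thus called in both directions, and 12 are too few to set them apart from the 1270.

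Most unmodified elements stood above the altered versions of their own region. In 720 regions with at least 3 modified versions, 561 unmodified elements (77.9%) lay above the median of their versions. The median difference was 0.42, and 0.42, 0.43 and 0.43 in single replicates. In 320 regions the unmodified element exceeded every version, and in 70 it was below every version. The side went with activity, the same value that enters the difference: of the 406 regions whose unmodified element was more active, 400 stood above their versions, by a median of 0.83, and of the 204 whose element was less active, 69 did, with a median difference of -0.14. chr4:139687605-139687804 stood at 2.66 against a median of 0.90 for its 4 versions, and chr9:123760000-123760199 at 2.52 against 0.87 for 5. chr8:61013469-61013668 stood at 2.71 against 2.37 for 58 versions, a smaller difference. At the low end, chr1:134310680-134310879 stood at -3.17 against -1.84 for 58 versions.

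Barcodes of one element disagreed more at the low end. The SD over the barcodes of an element had a median of 0.38 on the log2 scale, with 0.31 for more active and 0.54 for less active elements. It was 0.25 in the 127 most active and 0.84 in the 127 least active elements, while the median SD over replicates was 0.15 and 0.23. Across elements the Spearman correlation of activity with barcode SD was -0.475. Barcode SD also went with fewer DNA reads (Spearman -0.320), and low activity by definition with fewer cDNA reads; their part in this was not tested. With barcodes in place of replicates as the unit, 866 of the 1023 passing elements with at least 3 usable barcodes passed in the same direction, 524 of them more active and 342 less active.

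The widest barcode spreads were those of chr10:79514823-79515022, chr15:7835149-7835348 and chr17:73287537-73287736, at SDs of 2.05, 2.01 and 1.97. In chr17:73287537-73287736 the barcodes ran from -2.96 to 2.09 with a median of 1.78, and the element's call was lost with barcodes as units (limma adjusted p = 0.171). In chr15:7835149-7835348 the replicates were 0.77, -0.06 and 1.00 at 7.47 to 8.70 CPM of DNA, and the value without its best barcode was 0.15 (edgeR adjusted p = 0.659). Its sign turned to -0.72 with barcodes as units. The 3 elements nearest the typical one were tight by comparison. chr14:18438629-18438828 had 0.00, 0.05 and -0.07, chr11:57499259-57499458 had 0.03, 0.10 and -0.16, and chr17:49109433-49109632 had -0.14, 0.14 and -0.01.

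**Figure D5:**
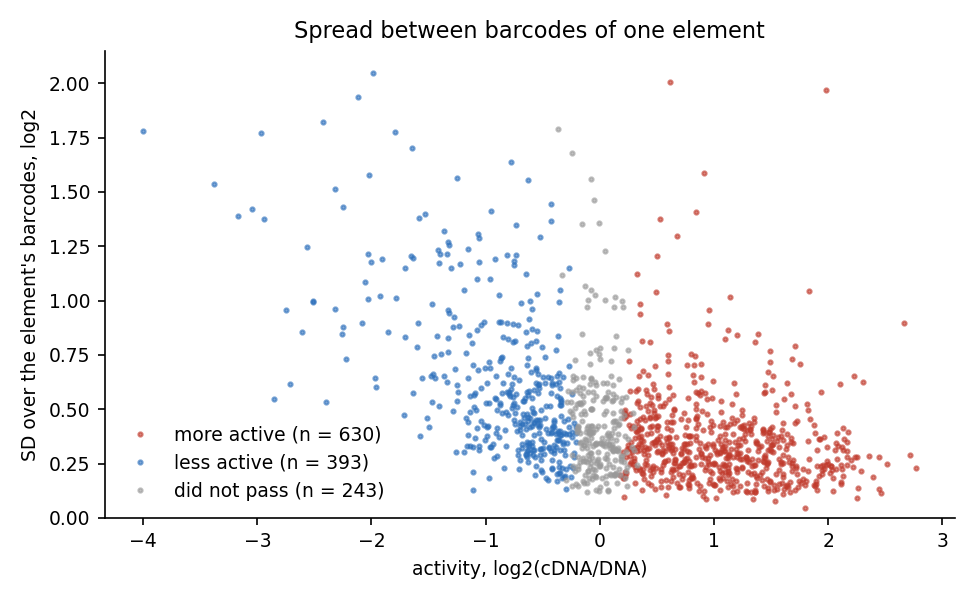
SD of log2(cDNA/DNA) over the barcodes of an element against its activity, for the 1266 elements with at least 3 usable barcodes, coloured by call. SDs above 1 are mostly on the left, among less active elements, and 2 more active elements stand near 2.

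On the rhodopsin promoter, measured with its own DNA and cDNA libraries, 615 of the 1270 elements (48.4%, against 43.2% of all elements) were more active and 523 (41.2%, against 45.7%) less active. In edgeR's interaction test over 12 libraries 869 of the 1270 (68.4%, the same share as of all elements) differed between the promoters: 572 (45.0%, against 41% of all elements) were higher on the Crx promoter and 297 (23.4%, against 27.4%) lower. Activity on each promoter is set against the typical element there, so higher or lower does not compare the output of the promoters. How the split into 572 and 297 depends on that zero was not tested. Activities on the promoters correlated at r = 0.727 across the 1270 elements, as a description. Of the elements called on the Crx promoter, 476 of the 631 more active elements were also more active and 103 were less active, and of the 394 less active ones 313 were less active and 43 more active. The element at Ppef2 was among those with opposite values: on the rhodopsin promoter its replicates were -0.44, -0.39 and -0.24.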

How the data were processed

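Barcodes were read from DNA and cDNA of electroporated retinas, after PCR of 21 and then 6 cycles, with reads of 50 bp, per the labels' protocols. The deposited counts are raw reads per barcode, with no counting tool named; mm9 comes from the submitters' processing notes. The authors' deposited log2 expression values were used only as an alternative; their replicates share one distribution. Counts were summed per element and tested as cDNA against DNA over 6 libraries with edgeR 4.0.16 (quasi-likelihood, TMM, R 4.3.3) on all 14987 elements, with Benjamini-Hochberg adjustment over all of them; glmTreat tested a fold of 2. Elements needed 10 DNA reads in each DNA library, which all passed. Replicate values are log2 of the ratio of normalized counts after adding 0.5. Barcodes as units used limma 3.58.1. Alternatives were total-count scaling, DESeq2, other filters, a replicate block, left-out replicates or barcodes, all 12 libraries in one fit, barcodes as units and the authors' own values. The test was checked on simulated data. Motifs were searched on both strands, and groups are described by counts and medians. Members, lists and motifs were chosen with earlier results of these data known. Named were the 10 highest and 10 lowest passing elements, the 3 nearest 0, the 3 of widest barcode spread, the highest, middle and lowest of the main motif groups, and elements at gene starts. No mm9 genome was used, so other elements were not assigned to genes.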

Additional observations from a re-analysis of the deposited data

Results flagged for a closer look

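The activities of the 32 elements named as the highest 10, the lowest 10 and the 12 at gene starts were compared between the Crx and the rhodopsin promoter, by an edgeR interaction term fitted to 12 libraries, with Benjamini-Hochberg adjustment over all elements. In 23 the activity differed, a share of the 32 to be read against 68.4% of all 14987 elements and 68.4% of the 1270 unmodified ones. Differences are pCrx minus pRho on the log2 scale, each activity being relative to the typical element on its promoter. They do not compare the output of the promoters.

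All of the highest 10 stood higher on pCrx than on pRho relative to the typical element, 10 of 10. They were chosen on their pCrx values, so this direction is no separate finding. The differences were 0.49 for chr14:52727791-52727990, 1.35 for chr8:61013469-61013668, 0.64 for chr4:139687605-139687804, 1.13 for chr9:123760000-123760199 and 0.39 for chr18:56764869-56765068. They were 0.78 for chr3:36517185-36517384, 0.49 for chr4:80552758-80552957, 1.20 for chr5:44471989-44472188, 0.88 for chr1:134617929-134618128 and 0.75 for chr6:57720875-57721074.

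Of the lowest 10, 7 differed and 6 of them were lower on pCrx, and they too were chosen on pCrx values: chr3:51290841-51291040 by -1.53, chr15:12670092-12670291 by -1.19, chr1:134310680-134310879 by -0.98, chr15:53019906-53020105 by -0.95, chr15:85825476-85825675 by -0.96 and chr13:93401816-93402015 by -0.46. chr9:45613135-45613334 went the other way, by 1.29: its activity was -2.75 on pCrx and -4.03 on pRho.

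At gene starts 6 of 12 differed, against 68.4% of all elements. The largest difference was that of the element at Ppef2, chr5:92685324-92685523, at 1.66 ± 0.12 (SE, 3 replicates a side; edgeR adjusted p = 2.67e-12), with an activity of 1.29 on pCrx and -0.36 on pRho. The others were 0.46 at Gm33582 (chr14:60790432-60790631), 0.26 at Casz1 (chr4:148263180-148263379), -0.79 at Zfp385a (chr15:103164766-103164965), -0.41 at BC002059 (chr17:17088460-17088659) and -0.35 at Msantd4 (chr9:4376373-4376572). Groups of 3 replicates are too small for a test of single outlying samples.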

How the results depend on the processing

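Against 631 more and 394 less active elements, and 258 and 82 past the 2-fold test, total-count scaling gave 145 and 145 past the 2-fold test, and barcodes as units gave 161 and 46; all other settings stayed within 1.5 times. Leaving out each replicate in turn gave 580 to 608, 369 to 371, 229 to 256 and 75 to 78. No element that passed in both the chosen fit and an alternative changed direction. DNA libraries of one number did not deviate with the cDNA libraries of that number (r = -0.014, -0.039 and 0.0097), so the numbers show no pairing in the data; with a replicate block the counts were 626, 397, 255 and 81. The 20 highest and lowest elements were called the same way in all 240 refits. Signs turned for chr15:7835149-7835348 with barcodes as units (-0.72), and with total-count scaling for chr5:31126478-31126677 (-0.0450), chr19:45366991-45367190 (-0.0189), chr11:44713604-44713803 (-0.00117) and chr13:44795786-44795985 (-0.27). Motif differences stayed at 0.43 to 0.54 for AGGTCA, 0.44 to 0.58 for the NEUROD-type E-box and -0.55 to -0.41 for GGAATG. Others moved more, mostly with means for medians: -0.58 to -0.19 for ATTGAT, 0.04 to 0.17 for TAATCC, 0.01 to 0.16 for the dimer and 0.18 to 0.96 for the dimer with C after both cores. Of 30 groups, 18 moved by over 1.5 times or changed sign in some setting; 5 of 30 groups, all with differences under 0.09, changed sign in some setting. The authors' deposited values follow the activities here at r = 0.998 over 1230 elements. The alternative of 1000 bp around start sites was not run, as no mm9 genome was used. Precision was lowest at the low end, where the median SD over replicates was 0.23 against 0.15 at the high end.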

Other observations

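A scan of all 6-letter sequences, counted on both strands, put half-site fragments at the top. It used the same elements and activities as the half-site groups above, GGGTCA among them, so it gives those groups no separate support. Of 2073 sequences, 1102 were held by at least 40 of the 1270 elements, and the difference in mean activity between elements with and without each was compared as a description, with no test. The middle 90% of the 1102 differences lay between -0.28 and 0.24. The highest were GACCTA (0.76, 51 elements), GGGTCA (0.72, 62 elements) and GGTCAC (0.49, 67 elements), which all overlap the half-site; AGGTCA itself stood at 0.43 and CAGATG at 0.42. Stretches rich in A, namely AAAATA (0.48) and AAAATC (0.46), stood among them. The lowest were AGTGAA (-0.53, 52 elements), ATTCCA (-0.52, 43 elements) and CACACC (-0.50, 64 elements). ATTCCA overlaps the TEAD core, and CACACC resembles KLF-type sites. For AGTGAA the replicates gave -0.55, -0.56 and -0.49. On the rhodopsin promoter CACACC differed less, at -0.15, whereas ATTCCA stood at -0.72; these promoter differences were not tested.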
